A study of Mus musculus with 12 samples.

Results

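The autophagy machinery and the transcription factors TFEB and TFE3 were followed as 32 genes in whole mouse embryos. The genes were fixed as a list of symbols that covers the start of autophagy, membrane growth, lipid conjugation, cargo capture and transcriptional control, without the related factor Mitf. All 32 symbols were present among the 41079 genes of the count table, and all 32 had enough counts to be tested. The embryos came from timed matings in which both parents carried 1 disrupted copy of Mfsd12, and they were collected 10.0 to 11.0 days after fertilization. The MFSD12 protein sits in the membrane of lysosomes and melanosomes and is needed to bring cysteine into them. By genotype, 4 embryos were knockout, 4 were heterozygous and 4 were wild-type for Mfsd12, each a separate animal. The groups share heterozygous parents, and the kind of allele, strain and sex are not given in the sources used here. Each library was made from whole-embryo RNA, so that fewer cells of a type and less RNA per cell cannot be told apart.

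Autophagy encloses cytoplasm in a double membrane and delivers it to the lysosome. A kinase complex around ULK1 starts the process, a lipid kinase complex around BECN1 marks the site, and WIPI, ATG2 and ATG9 proteins extend the membrane. A conjugation system related to ubiquitin then attaches the small proteins LC3 and GABARAP, the Atg8 family, to the membrane, where cargo receptors such as p62 (*Sqstm1*) bind them. TFEB and TFE3 are held in the cytoplasm while amino acids activate mTORC1 at the lysosome, and enter the nucleus and switch on lysosomal and autophagy genes when lysosomes are stressed. In mice, loss of several of the core genes stops development before or shortly after birth.

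TFEB and TFE3 bind the E-box CACGTG, above all inside the longer CLEAR core TCACGTGA, and the promoters that hold one are shown because these letters are the known target of the 2 regulators. RefSeq promoter windows, from 250 bases before to 50 bases after a gene's start on GRCm38.p6, were matched for 26 of the 32 genes by symbol. This build differs from the GRCm39 build of the counts. *Rb1cc1*, *Atg16l1*, *Map1lc3a*, *Atg12*, *Pik3c3* and *Becn1* had none in the table used. An E-box was found in 4 of the 26 windows (15.4%), those of *Atg14*, *Atg7*, *Atg3* and *Atg5*, and in 8.09% of 27025 genes. The sequences run 5′ to 3′ on the strand of the gene, and capitals mark the E-box.
Atg14 (chr14:47568410-47568455, minus strand): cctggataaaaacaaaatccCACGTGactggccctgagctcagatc
Atg7 (chr6:114670944-114670989, plus strand): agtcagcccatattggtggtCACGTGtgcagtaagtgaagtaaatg
Atg5 (chr10:44268305-44268350, plus strand): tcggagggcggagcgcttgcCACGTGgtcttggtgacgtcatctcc
Atg3 (chr16:45158715-45158783, plus strand): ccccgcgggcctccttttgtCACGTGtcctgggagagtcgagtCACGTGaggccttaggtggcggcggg
The second E-box of *Atg3* lies inside the 1 CLEAR core found among the 26 genes (3.85%, against 1.12% of all genes). Every CLEAR core contains an E-box, so the searches overlap. The element bound by ATF4, TGATGNAAT, was found in 0 of the 26 windows and in 1.08% of all genes. The antioxidant response element core TGACNNNGC was found in *Ulk2*, *Atg13*, *Map1lc3b* and *Tax1bp1* (15.4%, against 13.99% of all genes). All motifs were searched on both strands, and a match describes letters in a window, not a bound site.

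Libraries held 53133084 to 67977990 estimated counts. *Mfsd12* itself had 12.7, 16.2, 9.48 and 9.38 CPM in wild-type embryos 1 to 4, 8.84, 2.58, 6.03 and 5.91 CPM in heterozygous and 3.22, 2.78, 3.57 and 2.31 CPM in knockout embryos, where CPM is the count scaled to a common library total. Knockout and wild-type groups did not overlap (log2 fold change -2.01 ± 0.33 SE, adjusted p by edgeR = 0.385, exact permutation p = 0.0286, the smallest possible). The second heterozygous value lies inside the knockout range, so that embryo is called the library labelled heterozygous 2. It also stood apart in low-oxygen genes, with a mean centred log2 CPM of 2.27 over 12 targets of HIF, against -0.72 to 0.38 in the other 11 embryos. Wild-type 1 had the highest summed level of 10 erythroid markers (84121 CPM, where its 3 group mates had 16940.0 to 26108 CPM), and knockout 3 of 9 yolk sac markers (4727 CPM, against at most 691 CPM elsewhere). Markers of neurons, erythroid cells, muscle and heart, and endothelium were all detected in every embryo. *Xist* was at 397 to 1745 CPM in wild-type 2, knockout 1 and all 4 heterozygous embryos and at most 9.41 CPM in the other 6, so sex was not balanced between the groups.

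Per unit of gene length, *Gabarap* was the most abundant of the 32 genes and *Tfeb* the least. Levels between genes are given as TPM, which divides each count by the gene's exon length and scales every embryo to the same sum. *Gabarap*, an Atg8-family protein, had 420.0 ± 105 TPM (SD, n = 12 embryos), more than 99.3% of the genes in the table. The cargo receptor *Tax1bp1* followed at 87.1 ± 14.4 TPM, then *Gabarapl1* at 78.1 ± 19.1, *Map1lc3b* at 75.997 ± 16.6 and *Gabarapl2* at 70.3 ± 8.11 TPM. Neighbours among these 4 did not differ beyond their spread. Within the Atg8 family *Gabarap* supplied 52.8% to 63.7% of the summed TPM in every embryo. *Becn1* (63.8 ± 7.05 TPM) and the processing protease *Atg4b* (63.6 ± 8.61 TPM) lay in the next tier. *Sqstm1* had rank 13 at 36.9 ± 5.85 TPM. At the low end were *Pik3c3* (6.41 ± 0.895), *Atg10* (4.995 ± 0.886), *Optn* (3.34 ± 1.002) and *Tfeb* (0.620 ± 0.213 TPM). The order depends on the exon length used. *Pik3c3* has the longest of the 32 (15963 bases) and averaged 46.6 CPM in wild-type embryos. *Gabarapl2*, with 980 bases, averaged 35.2 CPM there. *Tfe3* had 17.3 ± 3.16 TPM, 16.9 to 53.4 times the TPM of *Tfeb* in the same embryo.

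**Figure D1:**
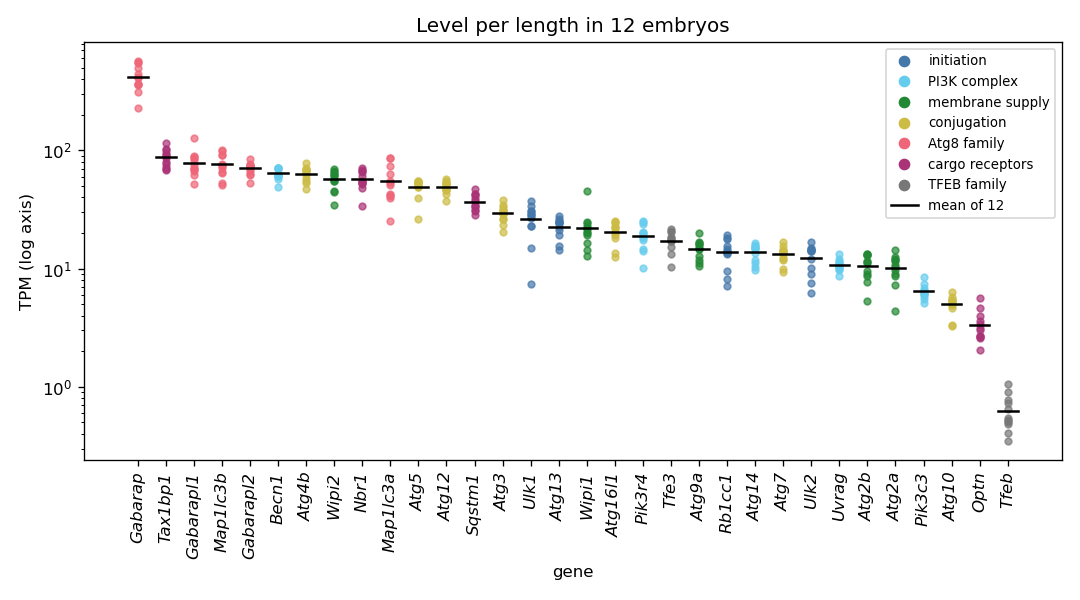
Level per gene length (TPM, log axis) of the 32 genes, ordered by their mean; each point is 1 of 12 embryos, the black line is the mean, and colours mark the role. *Gabarap* lies highest, with a mean of 420.0 TPM, and *Tfeb* lowest, with a mean of 0.620 TPM.

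The genes differed in how steady they were across embryos. The highest embryo had 1.81 times the level of the lowest for the median member (range 1.22 to 4.06), against 2.60 times for all 20771 genes tested and 1.95 times for the 10445 genes with a mean of at least 10 CPM. *Becn1* was the steadiest, with a coefficient of variation of 5.75% over 12 embryos. *Wipi1* varied most (45.5%), followed by *Map1lc3a* (43.3%) and *Gabarap* (37.2%). Extreme values were gathered in few animals. The library labelled heterozygous 2 was the highest or lowest of the 12 for 15 of the 32 members, wild-type 1 for 14 and knockout 4 for 11. The same 3 embryos were extreme for 36.6%, 37.6% and 33.1% of all genes tested. Knockout 4 was the lowest embryo for 10 of the 32 members, against 16.5% of all genes tested. The 10 were *Ulk2*, *Atg14*, *Wipi1*, *Atg7*, *Atg4b*, *Atg12*, *Map1lc3a*, *Map1lc3b*, *Gabarap* and *Tfe3*.

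**Figure D2:**
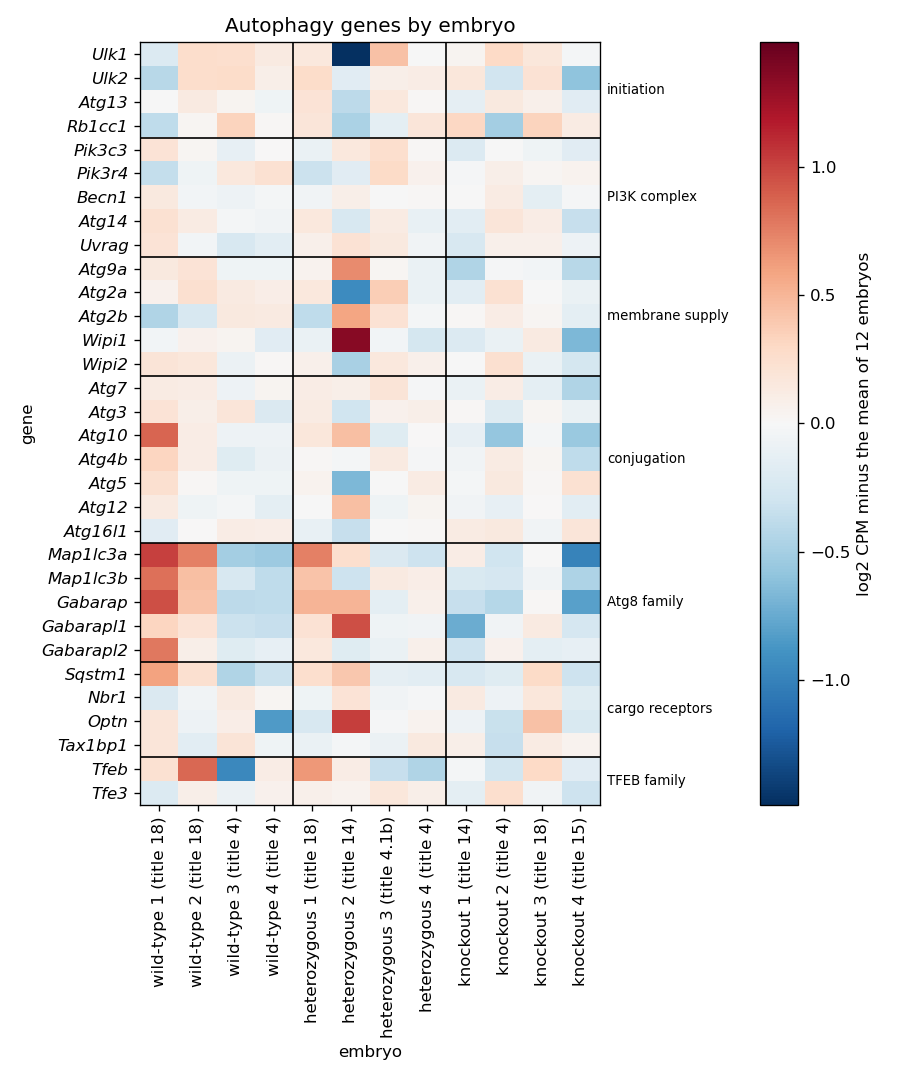
Log2 CPM of each of the 32 genes in each embryo minus the mean of the 12 embryos; rows are genes grouped by role, columns are embryos with the first number of their title, and red is above and blue below the mean. The column of the library labelled heterozygous 2 is blue for *Ulk1* and *Atg2a* and red for *Wipi1*, and the Atg8 rows are mostly red in wild-type 1, wild-type 2 and heterozygous 1.

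Whether loss of Mfsd12 moved these genes was asked in 3 comparisons, and 0 of the 32 passed the test in any of them. In each comparison 0 of 20771 genes (0%) had an adjusted p under 0.05 by the edgeR quasi-likelihood test with Benjamini-Hochberg adjustment over all genes. DESeq2 called 122, 74 and 4 genes in knockout against wild-type, knockout against heterozygous and heterozygous against wild-type embryos, and again 0 members. At an unadjusted p under 0.05, 2 members, *Atg10* and *Gabarap*, were lower and 0 higher in knockout than in wild-type embryos. Of all genes 8.33% passed that level, 4.08% lower and 4.25% higher. The p of both members was near it (0.0486 and 0.0492 by edgeR), and neither passed when libraries were scaled by DESeq2 size factors. In knockout against heterozygous embryos 1 member, *Atg9a*, was lower and 0 higher (7.4% of all genes, 3.79% lower and 3.61% higher). In heterozygous against wild-type embryos no member reached that level (0 of 32, against 1.01% of all genes, 0.732% higher and 0.274% lower). Groups of 4 embryos were fully separate for 0 members in every comparison, against 1.82% of all genes with knockout below and 1.6% with knockout above wild-type. The shares were 1.93% and 1.51% for knockout below and above heterozygous embryos, and 0.443% and 0.433% for heterozygous below and above wild-type embryos.

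The estimates of the members leaned slightly below 0. In knockout against wild-type embryos 9 of 32 were positive, with a median log2 fold change of -0.11, against 51.3% of all genes and a median of 0.011. In knockout against heterozygous embryos 8 of 32 were positive (median -0.12), and in heterozygous against wild-type embryos 14 of 32 (median -0.017), against 49.9% and 48.4% of all genes. These comparisons share embryos. Adding a stage index to the fit gave medians of 0.019 and 0.033 for the first 2, and their direction turned. The index is the mean z score of 10 genes known to rise with age minus that of 9 known to fall, and was -0.87, -1.69, 0.54 and -3.33 in knockout embryos 1 to 4 and 1.33, 2.18, 0.071 and -0.71 in wild-type embryos. Knockout embryos thus lay lower in it, with overlap. It shares *Tubb3*, *Stmn2* and *Gap43* with the neuron markers used here, *Hba-a1* with the erythroid and *Myog* and *Myh3* with the muscle markers, so it also moves with the content of those cells. The 95% interval of the log2 fold change lay within 1 of 0, a 2-fold change, for 27 of 32 members in knockout against wild-type embryos, and within 0.5 of 0 for 16.

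**Figure D3:**
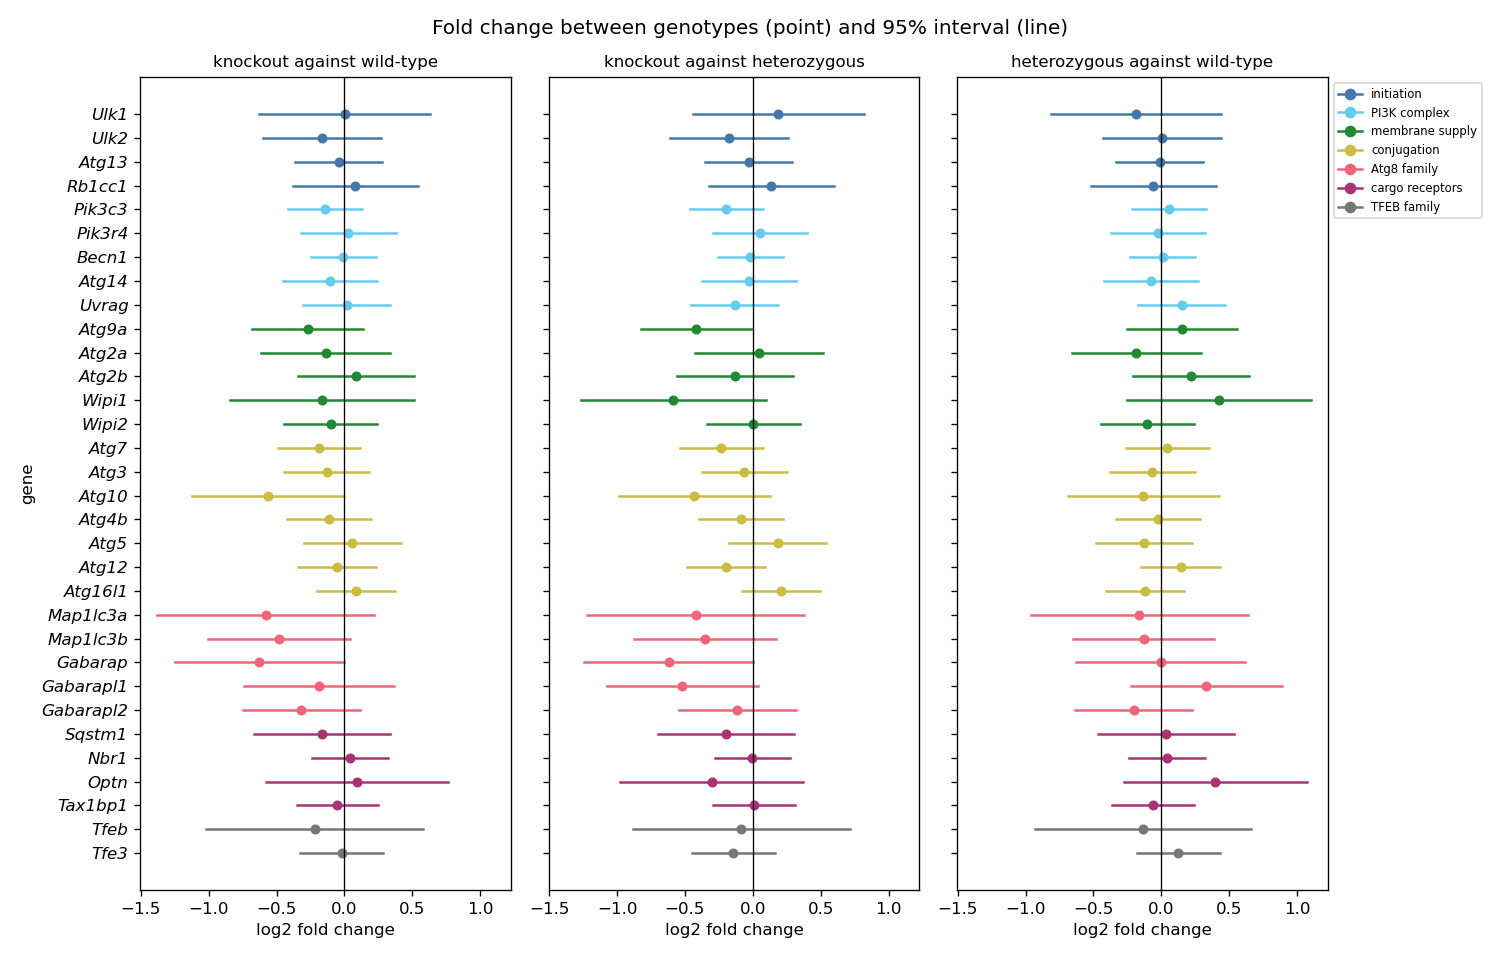
Log2 fold change (point) and its 95% interval (line) for each of the 32 genes in the 3 comparisons of genotypes; colours mark the role and the vertical line is 0. The interval excludes 0 for *Atg10* and *Gabarap* in knockout against wild-type and for *Atg9a* in knockout against heterozygous embryos, and in each case the adjusted p exceeds 0.05.

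The initiation complex showed no call. *Ulk1* (chr5:110932355-110957991, minus strand, GRCm39 as for all gene positions), the kinase that starts autophagosome formation, was its most abundant member. *Ulk1* had 54.5, 74.9, 74.7 and 68.9 CPM in wild-type embryos 1 to 4, 69.9, 22.4, 84.8 and 62.6 CPM in heterozygous embryos and 64.5, 76.9, 70.6 and 61.3 CPM in knockout embryos. Apart from the library labelled heterozygous 2, which had the lowest value of all, the ranges of the 3 genotypes overlapped. Its log2 fold change was 0.0015 ± 0.29 SE in knockout against wild-type embryos, and in heterozygous against wild-type embryos it was -0.19 with and 0.087 without that library. In knockout against heterozygous embryos it was 0.19, and -0.085 without the library labelled heterozygous 2. Blocked on title number, with that library kept, it was 0.60 and passed before adjustment and not after it. *Ulk2* (chr11:61666424-61750754, minus strand), the related kinase, had the smallest p of the complex. The CPM of *Ulk2* in embryos 1 to 4 were 42.998, 68.8, 69.5 and 60.8 in the wild-type group, 69.3, 50.9, 60.8 and 62.1 in the heterozygous group and 64.3, 47.2, 66.3 and 37.8 in the knockout group. The lowest *Ulk2* values were those of knockout 4, wild-type 1 and knockout 2, and the groups overlapped (log2 fold change -0.17 ± 0.20 SE, edgeR adjusted p = 0.812). *Atg13* and *Rb1cc1*, the scaffolds that hold the kinases, had log2 fold changes of -0.042 and 0.079.

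The lipid kinase complex makes phosphatidylinositol 3-phosphate at the growing membrane. In knockout against wild-type embryos its largest log2 fold change in size was 0.14, the smallest of the role groups. This ranking did not hold in the other comparisons. For *Becn1*, embryos 1 to 4 gave 76.01, 66.98, 65.3 and 67.4 CPM in wild-type, 66.5, 72.9, 68.4 and 69.6 CPM in heterozygous and 68.6, 75.03, 62.4 and 67.9 CPM in knockout animals. *Becn1* (chr11:101179084-101193112, minus strand), its scaffold, thus stayed between 62.4 and 76.01 CPM in all 12 animals, and the 3 groups overlapped. Between knockout and wild-type embryos its log2 fold change was -0.0088 ± 0.11 SE (95% interval -0.25 to 0.23). Of the exon bases of *Becn1*, 18.4% are shared with the antisense gene *Cntd1*, and strand was not used in counting. *Pik3c3*, the catalytic subunit on chromosome 18, had the smallest p of the 5. *Pik3c3* had 52.4, 46.3, 41.9 and 45.9 CPM in wild-type embryos 1 to 4, 42.4, 50.6, 54.4 and 46.2 CPM in heterozygous embryos and 39.7, 45.4, 43.6 and 40.5 CPM in knockout embryos. Knockout 1 and knockout 4 lay below the wild-type range and the other 2 knockout embryos inside it, so the groups overlapped (log2 fold change -0.14 ± 0.13 SE, edgeR adjusted p = 0.753). *Pik3r4*, the regulatory subunit, *Atg14*, which directs the complex to autophagosomes, and *Uvrag*, which directs it to endosomes, had log2 fold changes of 0.030, -0.11 and 0.016.

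Among the genes of membrane supply, *Atg9a* was lower in knockout than in heterozygous embryos before adjustment and not after it. *Atg9a* (chr1:75157509-75168654, minus strand) encodes a lipid scramblase carried on small vesicles. The CPM of *Atg9a* in embryos 1 to 4 were 31.1, 32.3, 26.9 and 26.9 in the wild-type group, 29.2, 45.7, 28.8 and 26.3 in the heterozygous group and 20.6, 27.9, 27.4 and 21.2 in the knockout group. Knockout 1 and knockout 4 were the lowest of all, the library labelled heterozygous 2 was the highest, and the remaining values overlapped. Between knockout and heterozygous embryos *Atg9a* had a log2 fold change of -0.42 ± 0.19 SE (edgeR adjusted p = 0.666), and -0.21 without the library labelled heterozygous 2. With the title block it was -0.38 and no longer passed before adjustment, and the same held with the stage index, *Xist* or voom and without that library or knockout 4. Against wild-type embryos it was -0.27 ± 0.19 SE (adjusted p = 0.693). *Wipi2* (chr5:142615269-142655427, plus strand), which binds the lipid made by the kinase complex and recruits ATG16L1, was the most abundant of the group. For *Wipi2*, embryos 1 to 4 gave 123, 121, 101 and 109 CPM in wild-type, 113, 76.9, 119 and 113 CPM in heterozygous and 107, 126, 100.3 and 89.7 CPM in knockout animals. Its lowest value was again that of the library labelled heterozygous 2, followed by knockout 4, and the genotypes overlapped (log2 fold change -0.10 ± 0.16 SE in knockout against wild-type embryos).

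*Wipi1* (chr11:109464347-109502215, minus strand), the close relative of *Wipi2*, is given in full because of 1 library. *Wipi1* had 16.6, 17.9, 17.5 and 15.2 CPM in wild-type embryos 1 to 4, 15.9, 43.5, 16.5 and 14.2 CPM in heterozygous embryos and 14.8, 15.9, 18.6 and 10.7 CPM in knockout embryos. The library labelled heterozygous 2 had the highest level of the 12, and the other 11 spanned 10.7 to 18.6 CPM. Between knockout and heterozygous embryos the log2 fold change of *Wipi1* was -0.59 ± 0.32 SE with this library and -0.054 without it. In heterozygous against wild-type embryos it was 0.42 with it and -0.11 without it. The lipid transfer proteins *Atg2a* and *Atg2b* had log2 fold changes of -0.14 and 0.086 in knockout against wild-type embryos.

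In the conjugation system *Atg10* had the lowest unadjusted p of all 32 members in knockout against wild-type embryos, and its estimate leaned on wild-type 1. *Atg10* (chr13:91083467-91372189, minus strand) encodes the E2-like enzyme that joins ATG12 to ATG5. The CPM of *Atg10* in embryos 1 to 4 were 10.2, 6.07, 5.30 and 5.33 in the wild-type group, 6.30, 7.67, 4.95 and 5.64 in the heterozygous group and 5.13, 3.75, 5.51 and 3.83 in the knockout group. Wild-type 1 was the highest embryo by a wide margin, the 4 lowest values included 3 knockout embryos, and knockout 3 lay inside the wild-type range. Its log2 fold change was -0.56 ± 0.26 SE (edgeR adjusted p = 0.599), -0.29 without wild-type 1 and -0.26 with the stage index. Within embryos of title number 4 the difference between knockout and wild-type was -0.50 and within number 18 it was -0.51 (1 knockout and 2 wild-type embryos each).

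*Atg4b* (chr1:93682627-93717328, plus strand), the protease that trims Atg8 proteins before and after conjugation, was the most abundant enzyme of the system. For *Atg4b*, embryos 1 to 4 gave 128, 111, 90.4 and 96.97 CPM in wild-type, 104, 101, 113 and 101 CPM in heterozygous and 99.3, 112, 104 and 79.3 CPM in knockout animals. Knockout 4 was lowest and wild-type 1 highest, with all other embryos between 90.4 and 113 CPM, and the groups overlapped (log2 fold change -0.11 ± 0.14 SE, 95% interval -0.42 to 0.20). The members whose promoters hold the E-boxes shown above had no call either, and no gene in the table had one by edgeR. *Atg7*, the E1-like enzyme, had 23.2 ± 3.61 CPM in the knockout and 26.5 ± 1.63 CPM in the wild-type group (SD, n = 4). *Atg3*, the E2-like enzyme for LC3 and the 1 member with a CLEAR core, had 25.3 ± 1.75 and 27.6 ± 3.44 CPM. *Atg5*, part of the E3-like complex, had 56.5 ± 4.65 and 54.3 ± 5.46 CPM. Their log2 fold changes were -0.19, -0.13 and 0.057, that of *Atg14* was -0.11, and none passed the test. *Atg12* and *Atg16l1*, the partners of ATG5, had log2 fold changes of -0.055 and 0.086. *Atg7* shares 16.4% of its exon bases with the antisense gene *Vgll4*, which had more reads (mean counts 5075 and 1550 per embryo), and the 2 cannot be told apart there without strand.

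The Atg8 family had the lowest median estimate of the 7 role groups in knockout embryos, and no member passed the test after adjustment. All 5 log2 fold changes were negative in knockout against wild-type embryos (median -0.48) and in knockout against heterozygous embryos (median -0.42). *Gabarap* (chr11:69882196-69885775, plus strand), which binds cargo receptors and the ULK1 complex on the membrane, is the main member by level. *Gabarap* had 398, 275, 156 and 159 CPM in wild-type embryos 1 to 4, 289.8, 292, 185 and 217 CPM in heterozygous embryos and 162, 154, 207 and 117 CPM in knockout embryos. Wild-type 1, wild-type 2, heterozygous 1 and the library labelled heterozygous 2 were high, wild-type 3 and wild-type 4 lay among the knockout embryos, and knockout 4 was lowest. The log2 fold change of *Gabarap* was -0.63 ± 0.29 SE against wild-type (95% interval -1.25 to -0.0024, edgeR adjusted p = 0.599) and -0.62 ± 0.29 SE against heterozygous embryos (adjusted p = 0.677).

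*Map1lc3b* (chr8:122317177-122325499, plus strand), the LC3 protein most often used to mark autophagosomes, was high in 3 of the same embryos. The CPM of *Map1lc3b* in embryos 1 to 4 were 150.2, 116, 72.3 and 65.6 in the wild-type group, 115, 68.8, 93.7 and 91.7 in the heterozygous group and 73.2, 71.6, 82.4 and 62.4 in the knockout group. Wild-type 1, wild-type 2 and heterozygous 1 were the 3 highest, and the remaining 9 embryos lay between 62.4 and 93.7 CPM whatever their genotype. Knockout against wild-type gave a log2 fold change of -0.48 ± 0.24 SE (adjusted p = 0.619 by edgeR). Counts of *Map1lc3b* were fractional in 10 of 12 libraries, from reads shared with other places or genes. *Map1lc3a* (chr2:155118284-155119993, plus strand), a second LC3 gene, varied more. For *Map1lc3a*, embryos 1 to 4 gave 48.9, 40.6, 17.1 and 16.7 CPM in wild-type, 40.8, 28.8, 20.996 and 19.6 CPM in heterozygous and 26.2, 19.7, 24.3 and 12.2 CPM in knockout animals. The same 3 embryos were highest, and wild-type 3, wild-type 4 and knockout 4 were lowest (log2 fold change -0.58 ± 0.37 SE, adjusted p = 0.677). *Gabarapl1* and *Gabarapl2*, the relatives of *Gabarap*, had log2 fold changes of -0.19 ± 0.26 SE and -0.32 ± 0.20 SE.

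**Figure D4:**
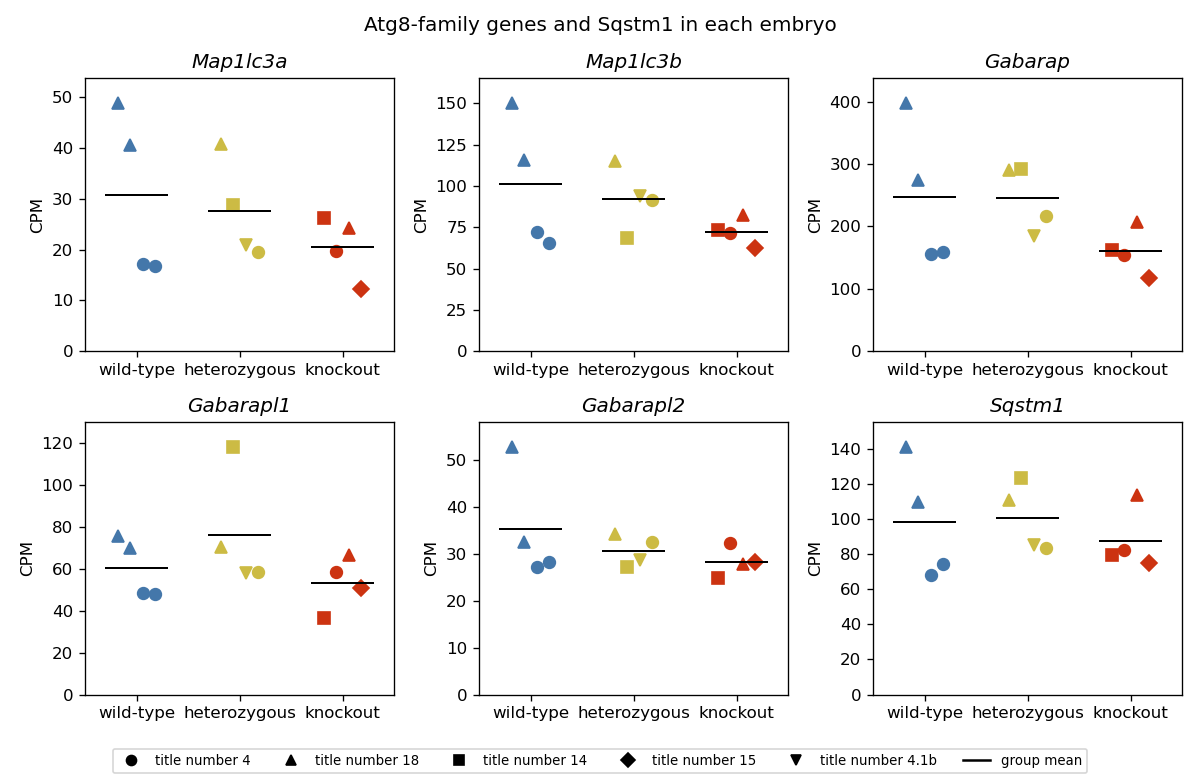
CPM of the 5 Atg8-family genes and *Sqstm1* in each embryo by genotype; each point is 1 embryo, its shape gives the first number of the title, and lines are group means of 4 embryos. Triangles (title number 18) lie mostly above circles (title number 4), as for *Map1lc3a*, where the 4 span 24.3 to 48.9 CPM and the 4 circles 16.7 to 19.7 CPM.

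The lower Atg8 estimates in knockout embryos were not steady across the ways of fitting them. Without wild-type 1 the log2 fold changes of *Gabarap*, *Map1lc3b* and *Map1lc3a* were -0.30, -0.23 and -0.27. Blocking on title number gave -0.43, -0.23 and -0.26. Knockout 4 and heterozygous 3 are each the only embryo of their title number, so the block fits them exactly and they add nothing to these estimates. The blocked comparison with wild-type embryos thus rests mainly on numbers 4 and 18. In knockout against heterozygous embryos the block gave -0.61 for *Gabarap*, which then passed before adjustment and not after it. Adding the stage index to knockout against wild-type gave -0.030, 0.036 and 0.34, so that the direction of the LC3 genes turned. Between the knockout and the wild-type embryos of title number 4, the log2 differences were -0.036, 0.057 and 0.22, and of number 18 they were -0.67, -0.68 and -0.88. Markers of several cell types also had estimates all or mostly on 1 side of 0 in knockout against wild-type embryos, with 0 called. The summed level of 10 erythroid markers was 4936 to 17831 CPM in the knockout and 16940.0 to 84121 CPM in the wild-type group, with 10 of 10 log2 fold changes negative. That of 10 neuron markers was 195 to 826 and 745 to 1238 CPM, also with 10 of 10 negative, and no marker of either list was at 0 in any embryo. The sum of 8 macrophage markers was 15.02 to 80.8 CPM in knockout and 50.99 to 119 CPM in wild-type embryos (7 of 8 negative, 1 marker at 0 in some embryo). That of 9 yolk sac markers was 79.1 to 4727 and 60.4 to 159 CPM (9 of 9 positive, 3 at 0 in some embryo). The part of these cells in the Atg8 values was not tested.

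The proximal promoters of *Gabarap*, *Map1lc3b* and *Sqstm1* are shown as examples. All 3 genes were highest in wild-type 1. That embryo was highest for 11 of the 32 members and for 19.5% of all genes tested. The 100 bases before each start are printed 5′ to 3′ on the strand of the gene, from RefSeq on GRCm38.p6, without capitals.
Gabarap (chr11:69991270-69991369, plus strand): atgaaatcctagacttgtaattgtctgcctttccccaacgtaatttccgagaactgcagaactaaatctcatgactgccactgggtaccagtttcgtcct
Map1lc3b (chr8:121590338-121590437, plus strand): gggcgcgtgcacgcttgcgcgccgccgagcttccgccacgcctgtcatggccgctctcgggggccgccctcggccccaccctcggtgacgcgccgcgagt
Sqstm1 (chr11:50210821-50210920, minus strand): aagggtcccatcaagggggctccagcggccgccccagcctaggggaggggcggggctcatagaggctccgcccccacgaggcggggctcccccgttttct
No E-box was found in the 3 whole windows, and the antioxidant response element core was found in that of *Map1lc3b*. Of the members whose windows hold an E-box, *Atg3*, *Atg5* and *Atg14* were also highest in wild-type 1. *Atg7*, the remaining one, was highest in heterozygous 3.

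The cargo receptors did not separate by genotype. *Sqstm1* (chr11:50090979-50105303, minus strand) encodes p62, which links ubiquitinated cargo to LC3, is itself degraded by autophagy and is induced by NRF2 and by TFEB. *Sqstm1* had 141, 109.9, 68.2 and 74.7 CPM in wild-type embryos 1 to 4, 111, 123, 85.1 and 83.5 CPM in heterozygous embryos and 79.3, 82.3, 114 and 75.2 CPM in knockout embryos. The highest embryos were wild-type 1, the library labelled heterozygous 2, knockout 3, heterozygous 1 and wild-type 2, and the lowest were wild-type 3 and wild-type 4, so that wild-type embryos held both ends. Knockout against wild-type gave -0.17 ± 0.23 SE on the log2 scale (95% interval -0.67 to 0.33, edgeR adjusted p = 0.835), which became 0.056 without wild-type 1 and 0.23 with the stage index. *Tax1bp1* (chr6:52690677-52743765, plus strand), a receptor for aggregates and bacteria, was the most abundant receptor per length. The CPM of *Tax1bp1* in embryos 1 to 4 were 165, 131, 168 and 139.5 in the wild-type group, 137, 144, 137 and 162 in the heterozygous group and 156, 116, 159 and 151 in the knockout group. Its lowest value was that of knockout 2 and its highest that of wild-type 3, and the groups overlapped (log2 fold change -0.052 ± 0.14 SE). *Nbr1*, a receptor related to p62, and *Optn*, a receptor in mitophagy, had log2 fold changes of 0.040 ± 0.13 SE and 0.094 ± 0.31 SE.

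The 2 regulators were expressed at different levels and neither passed the test between genotypes. *Tfeb* (chr17:48047962-48103341, plus strand) was scarce. For *Tfeb*, embryos 1 to 4 gave 2.34, 3.62, 1.02 and 2.15 CPM in wild-type, 3.13, 2.15, 1.57 and 1.46 CPM in heterozygous and 1.95, 1.66, 2.46 and 1.78 CPM in knockout animals. Wild-type embryos held both the highest and the lowest value, and counts of *Tfeb* ranged from 68 to 250 per library. For knockout against wild-type its log2 fold change was -0.22 ± 0.37 SE with a 95% interval of -1.02 to 0.58, which includes a log2 fold change of -1. *Tfe3* (chrX:7628769-7641441, plus strand), on the X chromosome, was steadier. *Tfe3* had 27.4, 33.4, 29.8 and 32.95 CPM in wild-type embryos 1 to 4, 33.2, 32.7, 35.3 and 33.5 CPM in heterozygous embryos and 28.5, 37.5, 30.5 and 25.4 CPM in knockout embryos. Knockout 2 was highest and knockout 4 lowest, and the other 10 embryos lay between (log2 fold change -0.019 ± 0.14 SE, 95% interval -0.33 to 0.29). With *Xist* as a covariate it was -0.0079. Both factors are also controlled through their place in the cell, which RNA does not measure.

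The first number of the embryo titles (4, 14, 15, 18 or 4.1b) has no stated meaning, and 2 members differed between its values. Numbers 18 and 4 each covered 2 wild-type, 1 heterozygous and 1 knockout embryo, and were compared with genotype in the fit. The comparison was added after the values were seen. *Map1lc3a* had 38.6 ± 10.3 CPM in number 18 and 18.3 ± 1.61 CPM in number 4 (SD, n = 4), with no overlap, and *Gabarap* had 292 ± 78.9 and 171 ± 30.2 CPM, with overlap between knockout 3 and heterozygous 4. Both were higher in number 18 by the edgeR quasi-likelihood test, *Map1lc3a* with a log2 fold change of 1.05 ± 0.20 SE (adjusted p = 0.0203) and *Gabarap* with 0.76 ± 0.18 SE (adjusted p = 0.0436). They were 2 of 32 members called, both higher, against 4.64% of all genes called, 2.98% higher and 1.67% lower, so the share of members was near the background.

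A further 3 members fell short of the threshold in the same comparison. *Sqstm1* had 119 ± 14.9 and 77.2 ± 7.15 CPM (log2 fold change 0.63 ± 0.16 SE, adjusted p = 0.0521 by edgeR), without overlap. *Map1lc3b* (0.61 ± 0.18 SE, adjusted p = 0.0737) and *Tfeb* (0.87 ± 0.29 SE, adjusted p = 0.0994) also had positive estimates. DESeq2 called these 3 as well as the first 2. The groups did not overlap for 4 members that lay higher in number 18, *Map1lc3a*, *Gabarapl1*, *Sqstm1* and *Tfeb*, and for 2 that lay lower, *Pik3r4* and *Atg16l1*, against 10.1% and 10.1% of all genes tested, again near the background. The median log2 fold change of the 32 members was 0.076 and that of all genes 0.028. Both calls were lost when any 1 of wild-type 1, 2, 3 and 4, heterozygous 1 or heterozygous 4 was left out, with adjusted p of 0.0534 to 0.0998 for *Map1lc3a* and 0.0663 to 0.176 for *Gabarap*. They held without knockout 2 or knockout 3. The stage index was 1.33, 2.18, 1.37 and 0.54 in the embryos of number 18 and 0.071, -0.71, 0.66 and -1.69 in those of number 4, so it was higher in number 18 within each genotype. Its part in the difference was not tested.

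The library labelled heterozygous 2 had a profile unlike that of the other heterozygous embryos across the 32 genes. It was the lowest of the 12 for *Ulk1*, *Atg13*, *Atg2a*, *Wipi2*, *Atg3*, *Atg5* and *Atg16l1*, and the highest for *Uvrag*, *Atg9a*, *Atg2b*, *Wipi1*, *Atg12*, *Gabarapl1*, *Nbr1* and *Optn*. Over all genes tested this library was the lowest for 18.7% and the highest for 17.9%. Against the mean of the other 3 heterozygous embryos it held 0.310 times the level of *Ulk1*, 0.471 times that of *Atg2a*, 0.607 times that of *Atg5* and 0.668 times that of *Wipi2*. It held 2.79 times the level of *Wipi1*, 2.13 times that of *Optn*, 1.90 times that of *Gabarapl1* and 1.63 times that of *Atg9a*. *Gabarapl1* reached 118 CPM there, and 36.6 to 75.6 CPM in the other 11 embryos. The relatives *Wipi1* and *Wipi2* also lay on opposite sides, the first high and the second low. This library had the highest HIF target values of all embryos and a mean centred log2 CPM of 1.39 over 22 ATF4 targets, against -0.70 to -0.45 in wild-type embryos. Their part in the pattern was not tested. Knockout 1, which has the same title number 14, had a HIF target value of -0.72 and an ATF4 target value of 1.73, with 14.8 CPM of *Wipi1* and 64.5 CPM of *Ulk1*, both inside the range of the other embryos.

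Other autophagy genes, listed beside the 32, likewise gave 0 calls in knockout against wild-type embryos, where edgeR called 0 of all 20771 genes tested. At an unadjusted p under 0.05, 4.08% of all genes were lower and 4.25% higher. Of 18 further core genes, 5 had positive estimates (median log2 fold change -0.077), 1 was lower and 0 were higher at an unadjusted p under 0.05. That gene was *Trp53inp2*, a nuclear cofactor that promotes autophagosome formation, with 46.9 ± 20.5 CPM in the knockout against 95.4 ± 28.9 CPM in the wild-type group (log2 fold change -1.02 ± 0.44 SE). *Zfyve1*, which marks the sites where autophagosomes form, had a log2 fold change of -0.20 ± 0.13 SE, and *Atg16l2* of 0.32 ± 0.21 SE. Of 15 further genes of cargo capture, a list that holds the mitophagy kinase *Pink1* beside receptors, 4 had positive estimates (median -0.13). *Pink1* (-0.64 ± 0.27 SE) and the receptor *Calcoco1* (-0.42 ± 0.19 SE) were lower at an unadjusted p under 0.05, and *Tollip* had -0.16 ± 0.12 SE. *Pink1* had 64.3, 60.7, 31.95 and 31.3 CPM in wild-type embryos 1 to 4, and 22.1 to 39.1 CPM in knockout embryos. *Calcoco1* had 65.8, 55.2, 40.6 and 38.7 CPM in wild-type, and 29.7 to 43.5 CPM in knockout embryos. Wild-type 3 and wild-type 4 thus lay inside the knockout range for *Pink1* and *Calcoco1*. Of 15 genes that fuse autophagosomes with lysosomes, 3 had positive estimates (median -0.095). *Stx17*, the autophagosomal SNARE, had 28.9 ± 4.85 CPM in the knockout against 37.3 ± 0.929 CPM in the wild-type group (log2 fold change -0.37 ± 0.14 SE, edgeR adjusted p = 0.559). *Stx17* was lower in every knockout than in every wild-type embryo, which held for 1.82% of all genes tested. Its partner *Vamp8* (-0.72 ± 0.39 SE) and the tether subunit *Vps41* (-0.21 ± 0.13 SE) had the next smallest p.

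Genes around TFEB were also without calls in knockout against wild-type embryos, where edgeR called 0 of all 20771 genes tested. Of 14 genes listed for the control of TFEB, which include its relatives *Mitf* and *Tfec*, 11 had positive estimates (median log2 fold change 0.087), and 0 passed before or after adjustment. The 3 with the smallest p were the Rag GTPase genes *Rragb* (0.43 ± 0.22 SE) and *Rragc* (-0.30 ± 0.16 SE), whose products bring mTORC1 to the lysosome, and *Mitf* (0.54 ± 0.29 SE), the related factor of pigment cells. Of 21 lysosomal targets of TFEB, 9 had positive estimates (median -0.024). At an unadjusted p under 0.05, 1 was lower and 0 higher, against 4.08% and 4.25% of all genes. *Atp6v0d1*, a subunit of the lysosomal proton pump, was lower at an unadjusted p under 0.05, with 51.7 ± 12.2 CPM in the knockout against 84.7 ± 36.6 CPM in the wild-type group. Its level was 133, 92.6, 55.9 and 57.0 CPM in wild-type embryos 1 to 4, and 34.9 to 64.2 CPM in knockout embryos. Wild-type 3 and wild-type 4 thus lay inside the knockout range. The protease gene *Tpp1* (0.48 ± 0.28 SE) and the glycosidase gene *Gla* (0.20 ± 0.18 SE) had positive estimates. The list summary values of wild-type 1 and knockout 3 were the highest of their groups (0.15 and 0.33 as mean centred log2 CPM).

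Of 3 lists of stress genes that share inputs with autophagy, the targets of ATF4 had the largest median estimate. Of 22 targets of ATF4, 21 had positive estimates in knockout against wild-type embryos (median log2 fold change 1.51). At an unadjusted p under 0.05, 16 were higher, against 4.25% of all genes, and 0 passed after adjustment by edgeR. The 3 with the smallest p were *Chac1* (5.14 ± 0.70 SE), *Sesn2* (2.10 ± 0.40 SE) and *Slc7a11* (2.04 ± 0.52 SE). The mean centred log2 CPM of the 22 was -0.17 to 1.73 in knockout and -0.70 to -0.45 in wild-type embryos, where that of the 32 autophagy genes was -0.24 to 0.059 and -0.094 to 0.18. Of 10 targets of NRF2, which also induces *Sqstm1*, 5 had positive estimates (median -0.030). Apart from *Slc7a11*, *Nqo1* (-1.07 ± 0.41 SE) and *Gclm* (-0.62 ± 0.28 SE) had the smallest p, both lower in knockout embryos before adjustment. *Nqo1* had 23.4, 13.9, 6.66 and 6.57 CPM in wild-type embryos 1 to 4, and 3.49 to 9.18 CPM in knockout embryos. *Gclm* had 46.3, 25.6, 20.1 and 20.2 CPM in wild-type, and 12.8 to 23.7 CPM in knockout embryos. Wild-type 3 and wild-type 4 thus lay inside the knockout range for *Nqo1* and *Gclm*. Of 12 targets of HIF, 11 had positive estimates (median 0.15), led by *Vegfa* (0.999 ± 0.66 SE), *Slc2a1* (0.80 ± 0.66 SE) and *Eno1* (0.43 ± 0.40 SE), and 0 passed before adjustment.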

How the data were processed

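RNA from 12 whole embryos was measured by sequencing. Per the labels' protocols, 325 ng of TRIzol-extracted RNA per embryo entered a strand-marking kit that selects mRNA, with spike-in RNA, and staging was refined computationally, without a stage per embryo in the labels. The authors deposited 1 table of estimated counts (expected counts) per gene. Per the file headers, featureCounts 2.0.6 produced it from the RefSeq annotation of GRCm39, with reads that mapped or overlapped several features counted as fractions, each mate counted on its own and strand not used. The submitters' processing notes also name DRAGEN and Subread.

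Estimated counts were rounded to whole numbers, filtered with filterByExpr (20771 of 41079 genes left) and scaled by TMM. The main test was the two-sided quasi-likelihood test of edgeR 4.0.16 (R 4.3.3, limma 3.58.1) with a mean per genotype over all 12 embryos, Benjamini-Hochberg adjustment over all genes and a threshold of 0.05. Standard errors were the fold change divided by the square root of its F statistic. TPM was computed from unrounded counts and the gene length column. Log2 CPM used a prior count of 2. DESeq2 1.42.0 and limma voom with sample weights, called voom throughout, were alternatives. The test was checked on simulated counts with known fold changes. The simulation held no outlying embryo and no effect of title number or stage. It therefore does not show what the test can detect in these embryos. Totals of 53133084 to 67977990 counts per embryo limit only the scarcest members, such as *Tfeb*. All library pairs differed by more than sampling noise, and the embryo numbers, given in deposition order, pair nothing.

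The members, the other gene lists and the tests were chosen with earlier results of these data known. All members are named. Values per embryo are given for members past the adjusted threshold, for *Sqstm1*, *Tfeb* and *Tfe3*, and in each role group for the member with the smallest p in knockout against wild-type embryos and the most abundant per length. *Map1lc3b* and *Wipi1* were added after their values were seen. Of the other lists the 3 genes with the smallest p are named.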

Additional observations from a re-analysis of the deposited data

Results flagged for a closer look

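In 7 of the 96 sets of 4 embryos (32 genes in 3 genotypes) 1 embryo stood apart from the other 3 of its genotype by Dixon's 95% criterion, which chance alone meets in about 1 of 20 sets. The library labelled heterozygous 2 was that embryo in 6 of the 7. It was high for *Wipi1* (43.5 CPM, against 14.2 to 16.5 CPM in the other heterozygous embryos), *Atg9a* (45.7 CPM, against 26.3 to 29.2 CPM), *Optn* (13.7 CPM, against 5.70 to 6.94 CPM) and *Nbr1* (148 CPM, against 123 to 128 CPM). It was low for *Wipi2* (76.9 CPM, against 113 to 119 CPM) and *Atg3* (21.5 CPM, against 27.5 to 28.6 CPM). The remaining set was *Atg10* in wild-type embryos, where wild-type 1 had 10.2 CPM, against 5.30 to 6.07 CPM in its 3 group mates. *Ulk1* in the library labelled heterozygous 2, at 22.4 CPM against 62.6 to 84.8 CPM, did not meet the criterion, because the other 3 embryos also differed.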

How the results depend on the processing

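Of the 32 members 0 were called between genotypes under every alternative tried, DESeq2 and voom included. Over all genes, knockout against wild-type gave 0 calls, and 122 with DESeq2, 2 with the title number as a block, 19 without knockout 3 and the library labelled heterozygous 2, 1 without knockout 1 and that library (added after seeing the data) and 0 to 1 with single embryos left out. Knockout against heterozygous gave 0, and 74 with DESeq2, 33 without knockout 3 and the library labelled heterozygous 2, and 0 to 1 with single embryos left out, and heterozygous against wild-type gave 0, and 4 with DESeq2. The median over the members for knockout against wild-type, -0.11 on the log2 scale, was 0.019 with the stage index, -0.013 with the title block, -0.039 with voom, -0.063 without wild-type 1, -0.026 without knockout 4 and -0.15 to -0.026 with single embryos left out. In knockout against heterozygous embryos, -0.12, it was 0.033 with the stage index, -0.046 with the title block and -0.16 to -0.051 with single embryos left out. For title number 18 against 4 the calls were 964 genes and 2 members, 2690 and 5 with DESeq2, 1688 genes with only those 8 embryos, and 87 to 1841 genes and 0 to 3 members with single embryos left out. Of 96 member estimates, the stage index moved 18 by more than 1 SE, voom 15, the title block 8, *Xist* 1, and leaving out wild-type 1 or the library labelled heterozygous 2 moved 8 each. The cause was not tested. The *Mfsd12* log2 fold change in knockout against heterozygous embryos was -0.82 with *Xist* and -0.42 with the stage index, in place of -0.98. In knockout against wild-type embryos it was -2.04 with *Xist* and -1.43 with the stage index, in place of -2.01. The index thus also reduced the estimate of the disrupted gene itself. The labels give no replicate numbers, and the title number, whose meaning they do not state, was the only block fitted. That block fits knockout 4 and heterozygous 3 exactly, since each is the only embryo of its number. The 4 embryos of each genotype and the low counts of *Tfeb*, *Atg10* and *Optn* limit these comparisons.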
